A study of Mus musculus with 14 samples.

Results

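The genes of the presynaptic vesicle and release machinery were examined in the RNA-seq of cortistatin-deficient and wild-type mouse brains after stroke. They are 39 of the 46904 genes in the deposited expression table, chosen by symbol as vesicle proteins, calcium sensors, SNARE proteins with their partners, active zone proteins and endocytic proteins. All 39 passed the filter on low values, which 46102 genes passed. The rule for their choice uses no measured value.

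Middle cerebral artery occlusion (MCAO) is a model of ischemic stroke in which a filament, here advanced through the left common carotid artery, blocks the blood supply of the striatum and nearby cortex. The mice were males on the C57BL/6J background, 12 weeks old, with an occlusion of 20 min, and both hemispheres were collected 48 h later. The 4 groups are the contralateral (CL) hemisphere of Cort+/+ mice (n = 3), the ischemic (MCAO) hemisphere of Cort+/+ mice (n = 3, replicates 2 to 4), the CL hemisphere of Cort-/- mice (n = 3) and the MCAO hemisphere of Cort-/- mice (n = 5). Every animal had the occlusion, so CL tissue comes from an operated brain. The Cort-/- mice are a constitutive knockout of cortistatin, a neuropeptide of cortical interneurons. The labels do not say which CL and MCAO hemispheres come from the same mouse. The study describes the replicates as independent, and by its methods, replicates that did not group clearly were dropped from comparisons with much variability, which bears on the spread between libraries. Its methods give 5 replicates for MCAO, whereas the series holds 3 MCAO libraries of Cort+/+ mice. Fewer libraries thus stand behind the Cort+/+ response than behind the Cort-/- response, which bears on the number of calls in each. Libraries held between 25989673 and 43032291 reads on genes, and Cort had 0 to 4 reads in the Cort-/- libraries and 64 to 139 in the Cort+/+ libraries.

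At a nerve terminal, neurotransmitter is stored in vesicles that dock at the active zone, a protein scaffold opposite the receiving cell. A calcium sensor of the synaptotagmin family and the complexins hold the SNARE proteins of vesicle and membrane ready, and calcium entry then triggers fusion, after which the vesicle membrane is retrieved by endocytosis. In striatum, the tissue most exposed to this occlusion, terminals belong both to local GABAergic neurons and to axons of cortical and thalamic neurons. The messenger RNA lies mostly in cell bodies, so a hemisphere library reports on the neurons whose bodies it holds. In such bulk tissue, fewer cells of a type and less RNA per cell cannot be told apart.

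The promoters of Cplx1 and Cplx2 are shown because these complexins, which clamp and then assist vesicle fusion, are the members with the lowest p-values in Cort+/+ mice and include the only member that passed the test. Each window runs from 250 bases before to 50 bases after the start of the RefSeq gene (build GRCm38.p6), 5′ to 3′ on the gene's strand. Capitals mark GC boxes, the letters GGGCGG or their reverse complement CCGCCC. The Cplx1 window (chr5:108549978-108550277, minus strand) held 2 of them and the Cplx2 window (chr13:54302306-54302605, plus strand) held 0.
Cplx1: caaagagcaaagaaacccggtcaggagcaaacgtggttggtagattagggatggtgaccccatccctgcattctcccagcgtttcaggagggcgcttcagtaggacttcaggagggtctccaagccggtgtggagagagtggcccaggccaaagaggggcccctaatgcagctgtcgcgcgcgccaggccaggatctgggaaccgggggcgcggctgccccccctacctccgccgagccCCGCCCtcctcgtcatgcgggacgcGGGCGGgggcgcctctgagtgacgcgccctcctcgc
Cplx2: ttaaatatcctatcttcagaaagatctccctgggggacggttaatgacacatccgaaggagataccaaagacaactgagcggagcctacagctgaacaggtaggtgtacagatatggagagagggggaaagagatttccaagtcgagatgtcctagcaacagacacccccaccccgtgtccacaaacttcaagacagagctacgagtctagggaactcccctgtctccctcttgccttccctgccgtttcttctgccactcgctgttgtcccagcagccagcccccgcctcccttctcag

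Windows were found for 30 of the 39 members, with 40 windows in all. GGGCGG or its reverse complement was present in 60% of those 40 windows, against 35.7% of all 32851 promoter windows. TGACGTCA, the palindromic cAMP response element, was present in 7.5% of them (Napa, Sh3gl2 and Syn1) and in 1.79% of all windows. These are counts of letters in a window, and nothing was measured at them.

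In RPKM, which are scaled to gene length and so can be compared between genes, the members covered a wide range in the CL hemispheres of Cort+/+ mice. Snap25, a SNARE protein of the plasma membrane, was the highest with 1025 ± 163 RPKM (SD, n = 3), followed by Syp, the vesicle protein synaptophysin, with 511 ± 69.9 RPKM and Vamp2, the main vesicle SNARE, with 373 ± 53.1 RPKM. Syt1 at 301 ± 18.6 RPKM and Cplx1 at 301 ± 23.2 RPKM came next and lay well within each other's spread, as did Rab3a (286 ± 25.8 RPKM), Dnm1 (279.8 ± 25.7 RPKM) and Cplx2 (269 ± 16.1 RPKM) after them. The lowest were Cplx3 (4.73 ± 0.539 RPKM), Unc13b (3.98 ± 0.390 RPKM) and Syn3 (2.98 ± 0.435 RPKM). Even the member with the fewest reads, Cplx3, had at least 388 in every library.

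Ischemia was accompanied by slightly lower values of most members in both genotypes, and a single gene passed the test. Cplx2 fell in the MCAO hemisphere of Cort-/- mice by 0.29 on the log2 scale (SE 0.057, adjusted p = 0.0253, limma with Benjamini-Hochberg adjustment over all genes). This was 1 of 39 members, where 1.72% of all genes tested were called in either direction and 0.382% were called lower, so the share of members is that of 1 gene. In Cort+/+ mice 0 of 39 members were called by limma, against 0.0108% of all genes, with 7 members at an unadjusted p under 0.05 and 0 called by limma voom on recovered reads. In Cort-/- mice 9 members had an unadjusted p under 0.05, and in both genotypes all such members were lower in MCAO. Of the 6410 genes averaging 10 RPKM or more, 453 in Cort+/+ and 1164 in Cort-/- mice were lower at that threshold, and of all 46102 genes 1378 and 2791 were.

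The log2 difference between MCAO and CL was below 0 for 33 of 39 members in Cort+/+ mice (median −0.072) and for 37 of 39 in Cort-/- mice (median −0.10). Over the same 6410 genes, 60.4% and 63.8% were below 0, with medians of −0.025 and −0.044, and over all genes tested the medians were 0. Members lower in MCAO numbered 29 to 37 in Cort+/+ and 35 to 37 in Cort-/- mice under the other scalings and models. With each library left out in turn, they numbered 25 to 35 in Cort+/+ and 34 to 37 in Cort-/- mice. The medians over members then ranged from −0.11 to −0.039 in Cort+/+ and from −0.13 to −0.080 in Cort-/- mice. Every MCAO library was below every CL library for 3 members in Cort+/+ mice, where 4.11% of all genes did so, and for 10 in Cort-/- mice, where 4.27% did so. Among the genes averaging 10 RPKM or more the shares were 9.34% and 13.3%. The 3 members were Syt1, Cplx2 and Rims2, and they were also among the 10 in Cort-/- mice, with Syp, Rab3a, Doc2b, Snap25, Vamp2, Cplx1 and Dnm1. The median 95% interval of a member reached 0.18 to either side in Cort+/+ and 0.16 in Cort-/- mice on the log2 scale.

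**Figure D1:**
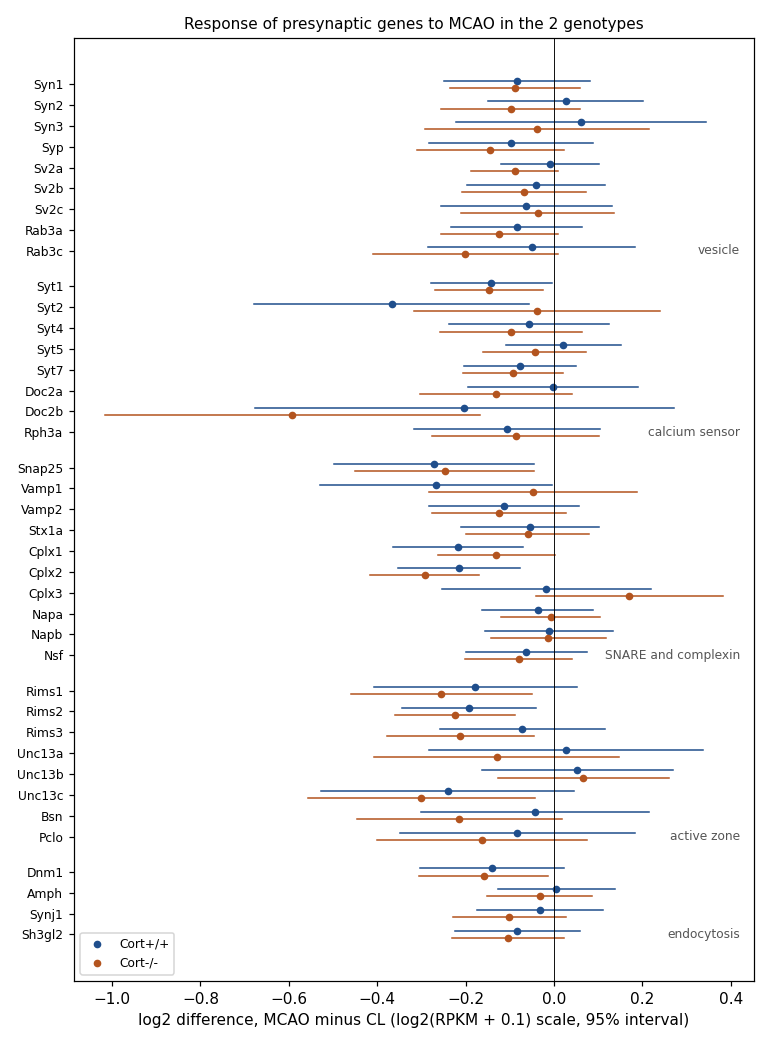
Log2 difference between MCAO and CL hemispheres (x axis, log2(RPKM + 0.1) scale) for each of the 39 members (rows, grouped by role), with points for the estimate and bars for the 95% interval of limma in Cort+/+ (blue) and Cort-/- (orange) mice. Most points lie left of 0 in both genotypes (33 and 37 of 39), and most intervals include 0.

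Among the SNARE proteins and their partners, all 10 were below 0 in Cort+/+ mice (median −0.088) and 9 of 10 in Cort-/- mice (median −0.070). Cplx2 (chr13:54519154-54531730, GRCm39) was measured at 262, 258 and 288 RPKM in the Cort+/+ CL libraries and at 221, 229 and 245 RPKM in the Cort+/+ MCAO libraries. Its Cort-/- values were 272, 258 and 270.4 RPKM in CL and 200, 220.1, 226, 211 and 232 RPKM in MCAO libraries. The groups did not overlap in either genotype, and the difference in Cort+/+ mice (−0.22, SE 0.064) had an adjusted p of 0.334. The Cort-/- call was lost, at adjusted p between 0.0543 and 0.115, without any 1 of the 3 Cort-/- CL libraries or without Cort-/- MCAO replicate 1 or 4, while its difference stayed between −0.32 and −0.26. Of the settings that make no use of replicate numbers, the call was also lost under quantile normalization (adjusted p = 0.0507) and in a fit of the 2 Cort-/- groups alone (adjusted p = 0.0736).

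Cplx1 (chr5:108666416-108697899), the paralogue that is as abundant, was at 299.6, 279 and 325 RPKM in Cort+/+ CL and 257, 242 and 279 RPKM in Cort+/+ MCAO libraries. Its values in Cort-/- mice were 279.8, 274 and 276 RPKM in CL and 240.3, 248, 272, 259.8 and 245 RPKM in MCAO libraries. Only the Cort-/- groups were fully apart, and neither difference passed (−0.22, adjusted p = 0.356, and −0.13, adjusted p = 0.400). Cplx3, a complexin known from ribbon synapses of the retina, was one of the 2 members above 0 in Cort-/- mice, at 3.98, 3.95 and 5.28 RPKM in CL and 5.23, 4.83, 5.04, 4.99 and 4.56 RPKM in MCAO libraries (0.17, adjusted p = 0.526). In Cort+/+ mice it was at 4.41, 4.43 and 5.35 RPKM in CL and 4.36, 4.86 and 4.76 RPKM in MCAO libraries, and the groups overlapped in both genotypes.

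Snap25 (chr2:136533580-136624362) was at 947, 916 and 1213 RPKM in Cort+/+ CL and 744, 855 and 940.5 RPKM in Cort+/+ MCAO libraries. In Cort-/- mice the CL libraries held 979, 928 and 885 RPKM and the MCAO libraries 760.1, 782, 824, 794 and 758 RPKM. The Cort-/- groups were apart and the Cort+/+ groups overlapped, with CL replicate 3 above all other libraries. The differences were −0.27 (SE 0.10, adjusted p = 0.519) and −0.25 (SE 0.094, adjusted p = 0.256), and without Cort+/+ CL replicate 3 the first was −0.14. Vamp2 stood at 358, 329 and 432 RPKM in Cort+/+ CL, 334, 331 and 363 RPKM in Cort+/+ MCAO, 353, 363 and 349 RPKM in Cort-/- CL and 326, 324, 331, 324 and 322 RPKM in Cort-/- MCAO libraries. The same CL replicate 3 was the highest, and the 5 Cort-/- MCAO libraries lay below the Cort-/- CL libraries (−0.12, adjusted p = 0.520).

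Stx1a, the syntaxin of the plasma membrane, had differences of −0.054 in Cort+/+ and −0.060 in Cort-/- mice. Of the proteins that take spent SNARE complexes apart, Nsf, the ATPase, was at −0.063 and −0.080, its adaptor Napa at −0.037 and −0.0076 and the neuronal adaptor Napb at −0.012 and −0.013. The 95% intervals in Cort-/- mice were −0.20 to 0.042 for Nsf, −0.12 to 0.10 for Napa and −0.14 to 0.12 for Napb.

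**Figure D2:**
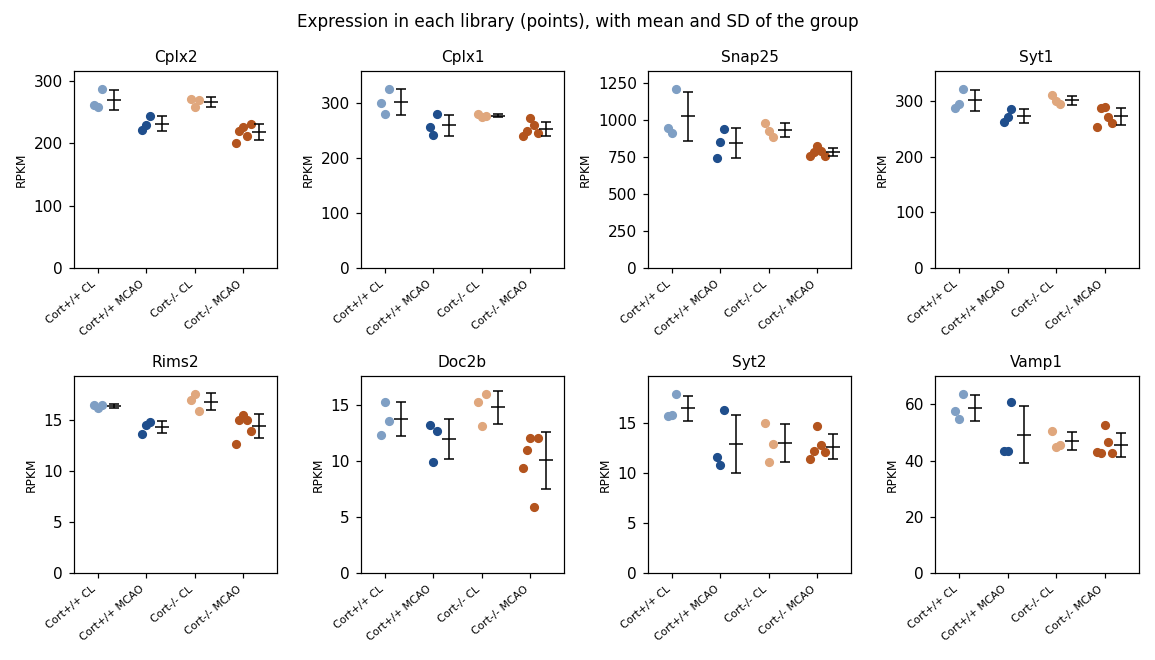
RPKM (y axis, from 0) of 8 members in each library, with points for libraries and black bars for the group mean and SD. Cplx2, Syt1 and Rims2 have all MCAO libraries below all CL libraries in both genotypes. Doc2b has a low value of 5.94 RPKM in Cort-/- MCAO replicate 4, and Syt2 and Vamp1 are lower in Cort-/- CL than in Cort+/+ CL libraries.

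Of the calcium sensors, 7 of 8 were below 0 in Cort+/+ mice (median −0.092) and 8 of 8 in Cort-/- mice (median −0.096), with none called. Syt1, the sensor of fast release in forebrain neurons, was at 287, 295 and 322 RPKM in Cort+/+ CL and 262, 271 and 286 RPKM in Cort+/+ MCAO libraries. In Cort-/- mice it was at 311, 299 and 295 RPKM in CL and 254, 287, 289, 272 and 261 RPKM in MCAO libraries. MCAO was below CL without overlap in both genotypes, with differences that did not pass the test (−0.14, adjusted p = 0.609, and −0.15, adjusted p = 0.265).

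Doc2b, a high-affinity sensor linked to spontaneous release, had the largest difference of the 39 members. Its Cort+/+ libraries held 12.3, 15.3 and 13.6 RPKM in CL and 13.3, 9.92 and 12.7 RPKM in MCAO, and its Cort-/- libraries 15.3, 13.2 and 16.0 RPKM in CL and 9.37, 10.97, 12.1, 5.94 and 12.1 RPKM in MCAO. The Cort-/- groups were apart and the Cort+/+ groups overlapped. The difference of −0.59 in Cort-/- mice (SE 0.20, adjusted p = 0.178) did not pass the test and was −0.41 without MCAO replicate 4, and that in Cort+/+ mice was −0.20 (adjusted p = 0.898). Its paralogue Doc2a gave −0.003 and −0.13.

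Syt2, the fast sensor of brainstem, spinal and some inhibitory neurons, had a larger difference in Cort+/+ than in Cort-/- mice, and the interaction did not pass the test (adjusted p = 1). It was at 15.6, 15.8 and 17.9 RPKM in Cort+/+ CL and 11.6, 10.8 and 16.2 RPKM in Cort+/+ MCAO libraries (−0.37, adjusted p = 0.533). In Cort-/- mice it was at 15.0, 11.1 and 12.9 RPKM in CL and 11.4, 12.2, 14.7, 12.8 and 12.1 RPKM in MCAO libraries (−0.038, adjusted p = 0.941). The Cort+/+ MCAO replicates 2 and 3 were low, and replicate 4 lay within the CL range. The remaining sensors had small differences, with Syt4 at −0.056 and −0.10, Syt5 at 0.021 and −0.044, Syt7, a slow high-affinity sensor, at −0.077 and −0.094, and the Rab3 effector Rph3a at −0.11 and −0.087 in Cort+/+ and Cort-/- mice.

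The vesicle proteins were the group with the smallest median in Cort+/+ mice, where 7 of 9 were below 0 (median −0.051), and all 9 were below 0 in Cort-/- mice (median −0.089). Syp was at 504, 445 and 584 RPKM in Cort+/+ CL and 463, 449 and 516 RPKM in Cort+/+ MCAO libraries. The Cort-/- libraries held 486, 513 and 482 RPKM in CL and 445, 461, 465, 429 and 432 RPKM in MCAO libraries. Its Cort-/- groups were apart (−0.14, adjusted p = 0.485), whereas its Cort+/+ groups overlapped (−0.10, adjusted p = 0.887). Syn1, which tethers vesicles to the reserve pool, was at 174, 176 and 216 RPKM in Cort+/+ CL, 174, 171 and 186 RPKM in Cort+/+ MCAO, 188, 179 and 193 RPKM in Cort-/- CL and 171, 182, 182, 164 and 179 RPKM in Cort-/- MCAO libraries. These groups overlapped in both genotypes (−0.084, adjusted p = 0.888, and −0.088, adjusted p = 0.668).

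Rab3c, a small GTPase of vesicles, was at 48.3, 62.6 and 60.5 RPKM in Cort+/+ CL and 55.2, 52.2 and 57.1 RPKM in Cort+/+ MCAO libraries. Its Cort-/- values were 59.7, 54.6 and 58.2 RPKM in CL and 47.0, 50.4, 59.0, 43.2 and 51.7 RPKM in MCAO libraries. Both pairs of groups overlapped, and the difference was larger in Cort-/- mice (−0.20, adjusted p = 0.421) than in Cort+/+ mice (−0.051), with no call for the difference between genotypes. Rab3a, its more abundant relative, gave −0.084 and −0.12. The synapsins Syn2 (0.027 and −0.10) and Syn3 (0.061 and −0.038), and the vesicle glycoproteins Sv2a (−0.0094 and −0.089), Sv2b (−0.041 and −0.068) and Sv2c (−0.063 and −0.036), had intervals that included 0 in both genotypes.

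The active zone proteins had a median of −0.078 in Cort+/+ mice (6 of 8 below 0) and of −0.21 in Cort-/- mice (7 of 8 below 0), with none called and 1 and 4 at an unadjusted p under 0.05. For the difference between genotypes in this response, none was called and 0 had an unadjusted p under 0.05. Cort-/- minus Cort+/+ had a median of 0.061 in CL (6 of 8 above 0) and of −0.009 in MCAO hemispheres (2 of 8 above 0). Rims2, a scaffold that recruits calcium channels and primes vesicles, was at 16.4, 16.2 and 16.5 RPKM in Cort+/+ CL and 13.6, 14.4 and 14.8 RPKM in Cort+/+ MCAO libraries. Cort-/- values were 16.9, 17.5 and 15.9 RPKM in CL and 12.6, 14.9, 15.5, 15.0 and 13.8 RPKM in MCAO libraries. Neither genotype showed overlap (−0.19, SE 0.070, adjusted p = 0.466, and −0.22, SE 0.063, adjusted p = 0.104). Rims2 was called in Cort-/- mice when only genes averaging 0.5 RPKM or more were tested (adjusted p = 0.0487) and by limma voom on recovered reads (adjusted p = 0.0423).

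Rims3, a short RIM protein, was at 42.1, 46.1 and 43.1 RPKM in Cort+/+ CL and 41.9, 38.8 and 44.4 RPKM in Cort+/+ MCAO libraries. Its Cort-/- values were 47.2, 40.9 and 48.7 RPKM in CL and 37.7, 41.7, 42.8, 34.5 and 40.2 RPKM in MCAO libraries. The Cort-/- groups overlapped through CL replicate 2 (−0.21, adjusted p = 0.230), and the Cort+/+ difference was −0.072. Bsn, the giant scaffold bassoon, was at 32.2, 41.4 and 34.3 RPKM in Cort+/+ CL, 35.8, 35.2 and 33.1 RPKM in Cort+/+ MCAO, 42.5, 37.0 and 47.1 RPKM in Cort-/- CL and 29.5, 40.5, 37.2, 37.3 and 37.5 RPKM in Cort-/- MCAO libraries. Those groups overlapped, with differences of −0.043 and −0.21. Pclo, the related scaffold piccolo, gave −0.084 and −0.16, and Rims1 −0.18 and −0.25 (adjusted p = 0.246 in Cort-/- mice). Of the Munc13 priming proteins, Unc13a gave 0.028 and −0.13, Unc13b 0.052 and 0.066, and Unc13c, known from cerebellum, −0.24 and −0.30 (adjusted p = 0.282).

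All 4 endocytic proteins were below 0 in Cort-/- mice (median −0.10) and 3 of 4 in Cort+/+ mice (median −0.057), with none called. Dnm1, the neuronal dynamin that pinches vesicles off, gave −0.14 and −0.16 (adjusted p = 0.725 and 0.326) and was apart in Cort-/- mice. Amph, its membrane-bending partner, gave 0.0054 and −0.032. Synj1, a phosphatase that takes part in shedding the clathrin coat, gave −0.032 and −0.10, and the endophilin Sh3gl2 −0.083 and −0.10.

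Cort-/- and Cort+/+ mice were then compared within each hemisphere, to ask whether the loss of cortistatin is accompanied by other levels of release genes. In CL hemispheres 0 of 39 members were called by limma, where 0.0152% of all genes were, and 2 had an unadjusted p under 0.05. In MCAO hemispheres 0 were called (0.0174% of all genes), with 0 at an unadjusted p under 0.05, and limma voom called 0 in both. The median differences were −0.0055 in CL and −0.030 in MCAO hemispheres, and both turned positive after rescaling to TPM (0.054 and 0.027), so no direction is given. The members' 95% intervals lay within 0.5 log2 of 0 for 36 of 39 in CL and 38 of 39 in MCAO hemispheres.

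The 2 members at an unadjusted p under 0.05 in CL were Vamp1, the vesicle SNARE of motor and other fast-firing neurons, and Syt2, and they were also the ones whose Cort-/- CL libraries all lay below the Cort+/+ CL libraries, where 2.35% of all genes did so. Vamp1 was at 57.7, 54.7 and 63.7 RPKM in Cort+/+ CL and 50.6, 44.9 and 45.4 RPKM in Cort-/- CL libraries (−0.32, SE 0.12, adjusted p = 1). In MCAO libraries it was at 43.4, 43.5 and 61.0 RPKM in Cort+/+ and 43.3, 42.7, 52.6, 46.5 and 42.7 RPKM in Cort-/- mice. Thus the Cort+/+ MCAO libraries 2 and 3 reached the level of Cort-/- libraries, and replicate 4 did not. For Syt2 the CL difference was −0.34 (SE 0.14, adjusted p = 1). Bsn (0.23) and Cplx1 (−0.12) followed by unadjusted p, and in MCAO hemispheres the lowest p-values were those of Cplx2 (−0.090), Doc2b (−0.28), Rab3c (−0.13) and Syp (−0.089), all with an adjusted p of 1.

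Markers of other cells were set beside Vamp1 and Syt2 in the CL hemispheres. All 6 oligodendrocyte markers were below 0 between Cort-/- and Cort+/+ CL (median −0.17, 0 called), and their summed level was 892 to 1083 RPKM in Cort-/- and 1098 to 1147 RPKM in Cort+/+ libraries. Of 9 cerebellum and hindbrain markers 7 were above 0 (median 0.10), with summed levels of 38.9 to 42.9 RPKM in Cort-/- and 34.9 to 39.3 RPKM in Cort+/+ libraries, and 6 of the 9 were under 1 RPKM on average. All 5 endothelial markers were below 0 (median −0.30, 0 called, 2 at an unadjusted p under 0.05), with summed levels of 25.1 to 28.7 RPKM in Cort-/- and 32.8 to 34.5 RPKM in Cort+/+ libraries. Of 7 thalamus markers 5 were below 0 (median −0.076, 0 called, 1 at an unadjusted p under 0.05). Their summed levels were 89.4 to 95.3 RPKM in Cort-/- and 86.8 to 91.3 RPKM in Cort+/+ libraries. Slc6a5, the glycine transporter of hindbrain neurons, was 1 of the 2 cerebellum and hindbrain markers below 0. It was at 0.103, 0.205 and 0.725 RPKM in Cort+/+ CL and 0.121, 0.00835 and 0.0429 RPKM in Cort-/- CL libraries. These groups overlapped, and all values were under 1 RPKM. The part of these cells in the Vamp1 and Syt2 values was not tested.

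An interaction contrast asked whether release genes responded differently to MCAO in the 2 genotypes. None of the 39 members was called by limma (0.00217% of all genes were), 0 had an unadjusted p under 0.05, and limma voom called 0. The lowest p-values belonged to Syt2 (0.33, 95% interval −0.088 to 0.75), Vamp1 (0.22, −0.13 to 0.57), Doc2b (−0.39, −1.03 to 0.25) and Cplx3 (0.19, −0.13 to 0.50), where a positive value means a less negative or more positive response in Cort-/- mice. For Cplx2 the interaction was −0.077 (−0.26 to 0.11), so its call in Cort-/- mice alone does not show that the genotypes differed.

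Pairs of paralogues with the same role were compared within each library, as a description with no test. Cplx1 was at 112% ± 3.15 of the Cplx2 level in Cort+/+ CL, 112% ± 5.60 in Cort+/+ MCAO (SD, n = 3 each), 104% ± 2.23 in Cort-/- CL (n = 3) and 116% ± 7.00 in Cort-/- MCAO libraries (n = 5). Syt2 was at 5.45% ± 0.0990 of Syt1 in Cort+/+ CL, 4.70% ± 0.868 in Cort+/+ MCAO, 4.31% ± 0.552 in Cort-/- CL and 4.62% ± 0.306 in Cort-/- MCAO libraries. Vamp1 was at 15.8% ± 0.967 of Vamp2 in Cort+/+ CL, 14.3% ± 2.15 in Cort+/+ MCAO, 13.2% ± 0.998 in Cort-/- CL and 13.99% ± 1.17 in Cort-/- MCAO libraries. Syn2 against Syn1 ranged from 46.7% to 57.0% over all libraries, Sv2c against Sv2a from 7.89% to 9.49%, and Napb against Napa from 150% to 165%, with overlap between all CL and MCAO groups for Napb. In 4 of the 6 pairs (Syt2, Vamp1, Cplx1 and Sv2c against their paralogues), the ratios of Cort-/- CL libraries all lay below those of Cort+/+ CL libraries. No share over other gene pairs was computed to set beside this count, so it is not read as a result. Syt2 and Vamp1 were also the members whose own values were apart in CL.

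**Figure D3:**
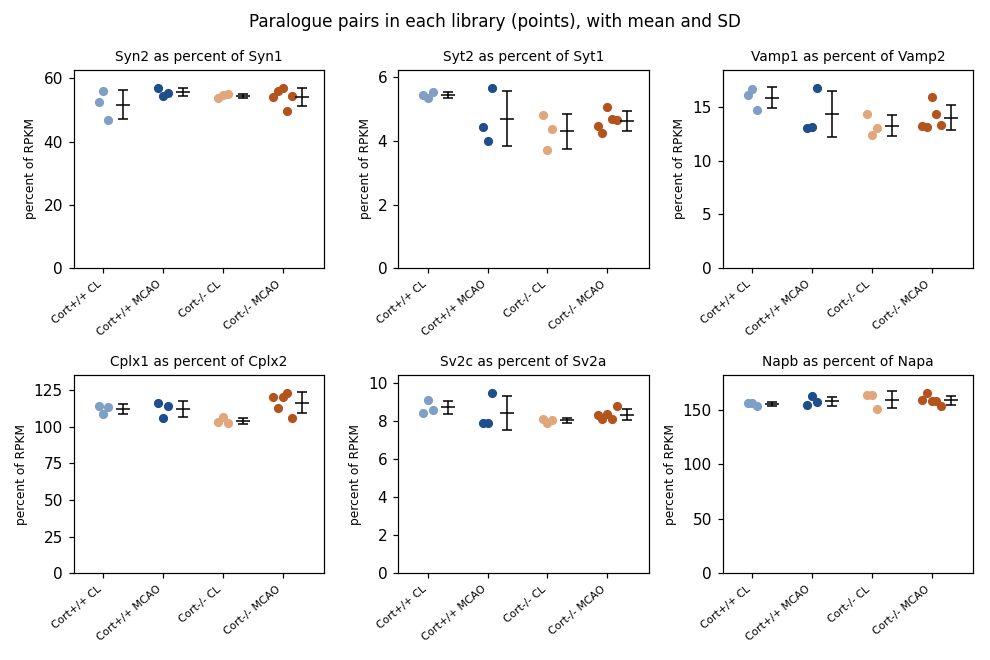
RPKM of one paralogue as a percent of the other (y axis, from 0) in each library, for 6 pairs, with points for libraries and black bars for the group mean and SD. The group means of the Syt2 and Vamp1 shares are highest in Cort+/+ CL (5.45% and 15.8%). The highest single libraries are in Cort+/+ MCAO (5.67% and 16.8%). The Napb share averages 155% to 159% in the 4 groups.

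The wider set of 77 other presynaptic genes (transmitter transporters, other vesicle, SNARE, endocytic and active zone genes, calcium channels and adhesion molecules) had a median log2 difference of −0.037 in Cort+/+ and of −0.10 in Cort-/- mice, with 53 and 63 of 77 below 0. In Cort+/+ mice 0 were called, with 3 at an unadjusted p under 0.05, and in Cort-/- mice 1 was called lower, where 0.382% of all genes were. At an unadjusted p under 0.05, 24 of the 77 were lower and 1 was higher in Cort-/- mice, and for 19 every MCAO library lay below every CL library. Of the 6410 genes averaging 10 RPKM or more, 1164 were lower and 629 higher at that threshold, and 13.3% had every MCAO library below CL. Of all 46102 genes tested, 2791 were lower and 3071 higher, and 4.27% had every MCAO library below CL. The interaction contrast of limma called 0 of the 77, and 1 had an unadjusted p under 0.05. The counts by genotype thus do not show that the genotypes differed. In CL hemispheres, 52 of the 77 were higher in Cort-/- than in Cort+/+ mice (median 0.027, 0 called), as were 3437 of the 6410 genes. The called gene was Scamp1, a carrier protein of vesicle membranes, at 50.0, 49.9 and 46.4 RPKM in CL and 40.2, 41.9, 44.6, 40.6 and 40.7 RPKM in MCAO libraries of Cort-/- mice (−0.23, SE 0.053, adjusted p = 0.0480). Its Cort+/+ values were 49.2, 47.7 and 50.8 RPKM in CL and 42.6, 42.7 and 48.6 RPKM in MCAO libraries (−0.14). The Scamp1 call held in only 2 of the 14 fits that left out 1 library and under 5 of 10 other settings.

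The transporters that fill vesicles mark the type of terminal. Slc32a1, the vesicular GABA transporter, was at 42.9, 41.8 and 44.0 RPKM in Cort+/+ CL and 39.1, 35.2 and 43.4 RPKM in Cort+/+ MCAO libraries. The Cort-/- libraries held 43.8, 43.4 and 43.6 RPKM in CL and 33.4, 39.1, 40.6, 31.0 and 37.3 RPKM in MCAO libraries, with every MCAO library below CL (−0.27, adjusted p = 0.143, and −0.13 in Cort+/+ mice). Slc17a7, the vesicular glutamate transporter of cortex, gave 0.040 and −0.031, with group means of 354 and 363 RPKM in Cort+/+ and 383 and 375 RPKM in Cort-/- CL and MCAO libraries. Slc17a6, that of thalamus and brainstem, gave −0.033 and −0.16. None of these 3 passed the test in either genotype.

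Markers of striatal neurons and of microglia differed more between hemispheres, by their medians, than the release genes did. The 13 markers of striatal projection neurons had medians of −0.67 in Cort+/+ mice (0 called) and −0.79 in Cort-/- mice (10 called lower), with summed levels of 619 to 670 RPKM in Cort+/+ CL, 366 to 570 RPKM in Cort+/+ MCAO, 622 to 644 RPKM in Cort-/- CL and 312 to 461 RPKM in Cort-/- MCAO libraries. The 20 pan-neuronal genes had medians of −0.11 in both genotypes, with 0 called, close to those of the members. The 7 microglia markers had medians of 0.69 and 0.70 (0 and 5 called higher), with summed levels of 128 to 157 and 178 to 311 RPKM in Cort+/+ CL and MCAO and 133 to 162 and 211 to 372 RPKM in Cort-/- CL and MCAO libraries. The 8 macrophage and leukocyte markers had medians of 0.88 and 1.17, with 0 and 3 called higher and Ms4a7, Ccr2 and Cd3e under 1 RPKM on average. None of the pan-neuronal, striatal or microglia markers was under 1 RPKM on average, so the defining markers of brain tissue were present.

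The release genes and the striatal markers were also followed library by library. As the median log2 deviation from the mean of the 6 CL libraries, the members were at −0.12, −0.13 and 0.0075 in Cort+/+ MCAO replicates 2, 3 and 4, where the striatal markers were at −0.68, −0.91 and −0.23. In Cort-/- MCAO replicates 1 to 5 the members were at −0.21, −0.049, 0.0020, −0.15 and −0.13 and the striatal markers at −1.22, −0.81, −0.56, −0.94 and −0.63. The CL libraries lay between −0.046 and 0.060 for the members. Members and striatal markers were thus lowest in Cort-/- MCAO replicate 1, and the part of striatal neurons in the members' values was not tested.

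**Figure D4:**
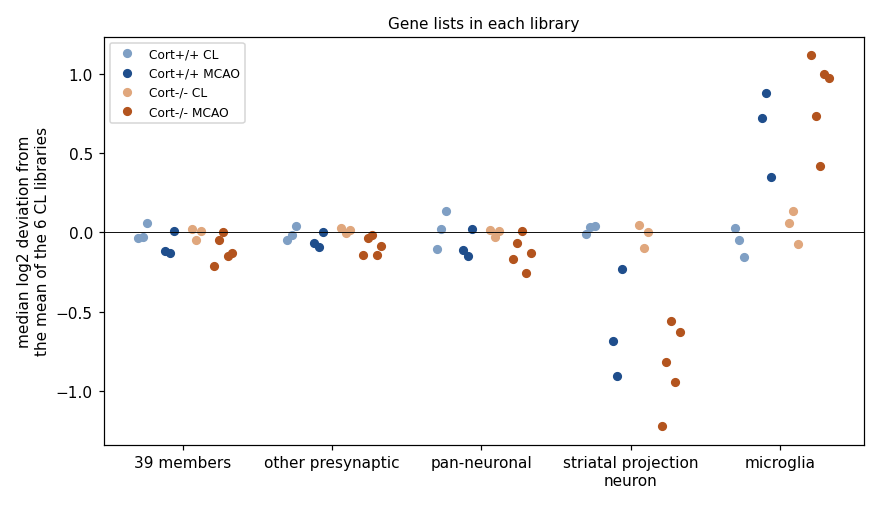
Median log2 deviation of each gene list from the mean of the 6 CL libraries (y axis) in each library (points, coloured by group). The 39 members, the other presynaptic genes and the pan-neuronal genes lie between −0.25 and 0.14 in every library, and the striatal projection neuron markers fall to −1.22. The microglia markers rise to 1.115 in Cort-/- MCAO replicate 1 and to at most 0.88 in Cort+/+ MCAO libraries.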

How the data were processed

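The authors sequenced stranded mRNA libraries of mouse hemispheres, aligned the reads to GRCm39 with reanalyzerGSE and deposited RPKM values (reads per kilobase of gene and per unit of library size) for each of 14 libraries, with no column averaged over replicates. How they set gene lengths is not given in the sources used here. Depth was recovered from the steps of the RPKM values, since 100% of the 495656 values above 0 are whole reads within 0.01.

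Genes above 0 in at least 2 libraries (46102 of 46904) were fitted as log2(RPKM + 0.1) with limma 3.58.1 in R 4.3.3, all 4 groups in the same model and a trended variance. The p-values were adjusted by Benjamini-Hochberg over all genes, and a call has an adjusted p under 0.05. Fold changes are on the log2(RPKM + 0.1) scale. No 2 libraries of a group differed by as little as sampling noise (the chi-square statistic was at least 5.21 times its degrees of freedom). The members and lists were chosen with earlier results of these data known. All 39 members are named. Values by library are given for members called, for the 4 of lowest p in each comparison and for Syp, Snap25, Syn1, Vamp2 and Syt1. Positions are from GENCODE M39. Alternatives were other pseudocounts, filters, scalings and groups fitted, a replicate block, leaving out each library and, chosen after seeing the data, limma voom on recovered reads.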

Additional observations from a re-analysis of the deposited data

How the results depend on the processing

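Groups held 3 to 5 libraries, and leaving out a single library changed the number of calls. The power to call changes of the size seen here was not measured. The number of members called in Cort-/- mice was 1, and became 2 when genes averaging 0.5 RPKM or more were tested and 2 with limma voom (Cplx2 and Rims2), 0 with quantile normalization, 0 with the Cort-/- groups alone, and 0 to 1 with 1 library left out. Calls over all genes there were 792, 0 with the replicate block, 1294 with limma voom, and 133 to 1191 with 1 library left out. In Cort+/+ mice they were 5, against 0 to 57 and 3 to 160. In CL they were 7, against 4 to 90 and 7 to 27, in MCAO 8, against 4 to 15 and 7 to 40, and for the interaction 1, against 0 to 1 and 1 to 16. The cause was not tested.

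Labels share replicate numbers between groups, but nothing says that a number marks 1 animal, and same-numbered libraries did not deviate together (correlations from −0.41 to 0.32, 2 of 11 best with their own number). With the replicate block 0 members were called in Cort-/- mice (adjusted p = 0.35 for Cplx2), the median over members in Cort+/+ mice was −0.15, and that of the interaction was 0.028.

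The log2 difference of Syp between genotypes in MCAO turned to 0.0022 with quantile normalization. With 1 library left out, the Cort+/+ difference of Syp ranged from −0.19 to 0.0036 and that of Syn1 from −0.14 to 0.015, both highest without Cort+/+ CL replicate 3, without which that of Vamp2 was −0.0018. The other medians over members moved by less than the spread between libraries (0.070). That spread is larger than the genotype medians themselves (−0.0055 in CL, −0.030 in MCAO and −0.030 for the interaction), so it cannot show that their sign is stable. With 1 library left out, they reached 0.048 in CL, 0.013 in MCAO and 0.0069 for the interaction.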
